A study of Homo sapiens with 9 samples.

Results

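Genes that hold epithelial cells together and give them polarity were followed in HepG2 cells treated with small interfering RNAs against HNF4alpha and HNF4gamma. The set holds 43 genes chosen by function, with earlier results of these data known. They are adherens junction, tight junction, claudin, polarity, gap junction and desmosome genes, with EPCAM, ESRP1 and ESRP2 as genes of epithelial identity. A probe set annotated to the gene alone was found for 40 of them, and 32 were bright enough to be tested among 13056 genes in all. HepG2 is a line of human hepatocellular carcinoma cells that still express many genes of hepatocytes. The arrays form 3 groups of 3: knockdown1 and knockdown2, both labelled as knockdowns of HNF4alpha and HNF4gamma together, and control. How the knockdowns differ, what the control cells received and the time after transfection are not given in the sources used here. Nor do the labels state that replicates came from separate cultures, so p-values measure the spread between arrays, which may be technical. All groups share 1 cell line and an oligo(dT)-primed labelling, and expression in each is a mixture over many cells, so fewer cells expressing a gene and less RNA per cell cannot be told apart.

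HNF4alpha and HNF4gamma are nuclear receptors that bind DNA and activate many liver and gut genes. Epithelial cells are joined by adherens junctions, built on cadherins and catenins, and by desmosomes, which anchor intermediate filaments. Tight junctions, with claudins and occludin, seal the space between cells. Gap junctions pass small molecules through connexin channels, and polarity proteins set apart the apical and basolateral membranes, which in hepatocytes face the bile canaliculus and the blood.

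Signals are linear probe-set brightness after scaling each array to a common median of 14.1, and differences are on the log2(signal + 1.41) scale, which understates changes of dim genes. A gene is called when limma's Benjamini-Hochberg adjusted p over all tested genes was under 0.05. Differences over both knockdowns are the average of knockdown1 and knockdown2 minus control, so such a call can rest on a single knockdown. Arrays of a group correlated at 0.973 to 0.978 across genes, and arrays of different groups at 0.931 to 0.953. HNF4G, the gene of HNF4gamma, had mean signals of 18.5 in knockdown1, 31.6 in knockdown2 and 46.0 in control. Its log2 difference from control was -1.28 (SE 0.28, adjusted p = 5.38e-04) in knockdown1 and -0.56 (SE 0.28, adjusted p = 0.142) in knockdown2. HNF4A, the gene of HNF4alpha, had no probe set of its own in the annotation used here, so the knockdown of this target was not checked. All 10 hepatocyte markers listed, such as ALB and APOA1, were bright enough to test, and their summed signal was 33654 to 40521 in knockdown1, 36875 to 39537 in knockdown2 and 40623 to 49293 in control. Of markers of other cells, 4 of 5 cholangiocyte genes were tested, with sums of 1885 to 2293, 1610 to 1794 and 916 to 1264 in the same order. KRT19, a keratin of bile duct cells, rose by 2.27 (SE 0.14, adjusted p = 1.40e-12) over both knockdowns. The log2 differences of the 4 cholangiocyte genes ran from -0.08 to 2.27 there. The sums of 4 of 6 fibroblast and stellate cell markers were 767 to 1002, 776 to 989 and 448 to 527, with COL3A1 and LUM not above the filter on dim probe sets. These 4 did not move alike, with log2 differences of -0.71 to 1.02 over both knockdowns and -1.19 to 1.05 in knockdown1. Of 6 leukocyte markers only LYZ and CD14 were tested, with sums of 2698 to 3416, 3340 to 4197 and 2943 to 3913. The sums overlapped, but 1 of these genes was called lower over both knockdowns, at -2.66, and the other was at 0.01. Of 5 endothelial markers only PECAM1 was tested, at 67.4 to 75.7, 72.2 to 88.9 and 46.0 to 54.0. PTPRC, CD3E, CDH5, VWF, KDR and TEK, which define leukocytes and endothelium, were not above the filter. The part of these markers in the results below was not tested.

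In knockdown1, 13 of the 32 tested genes (40.6%) differed from control, against 33.3% of all genes. They were 4 higher and 9 lower, where 14.3% of all genes were higher and 19.0% lower. In knockdown2, 19 of 32 (59.4%) differed from control, against 27.6% of all genes. Of these 8 were higher and 11 lower, against backgrounds of 13.7% and 13.9%. Over both knockdowns together 12 of 32 differed (37.5%, background 32.6%), 3 higher and 9 lower, with backgrounds of 14.7% and 17.9%. The arrays of control lay wholly apart from all 6 knockdown arrays for 8 of 32 genes, against 20.9% of all genes. Between the knockdowns, 13 of 32 differed (40.6%, background 26.6%), 6 higher in knockdown1 and 7 lower, with backgrounds of 10.5% and 16.1%. The share in knockdown1 and over both knockdowns was thus near that of all genes. The share in knockdown2 and between the knockdowns was above it. Because the genes were chosen with earlier results of these data known, a share above the background is a description only. The median size of the log2 difference was 0.36 for the junction genes and 0.36 for all genes in knockdown1, 0.63 and 0.32 in knockdown2, and 0.42 and 0.31 between the knockdowns. The split by direction depended on the scaling. Without scaling, with quantile normalization or with arrays centred on the tested genes, knockdown1 gave 6 higher and 8 lower, and both knockdowns together gave 8 higher and 9 lower, 8 and 9, and 9 and 9. Without control replicate 3, both knockdowns together gave 10 higher and 9 lower, and knockdown1 gave 6 higher and 8 lower.

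**Figure D1:**
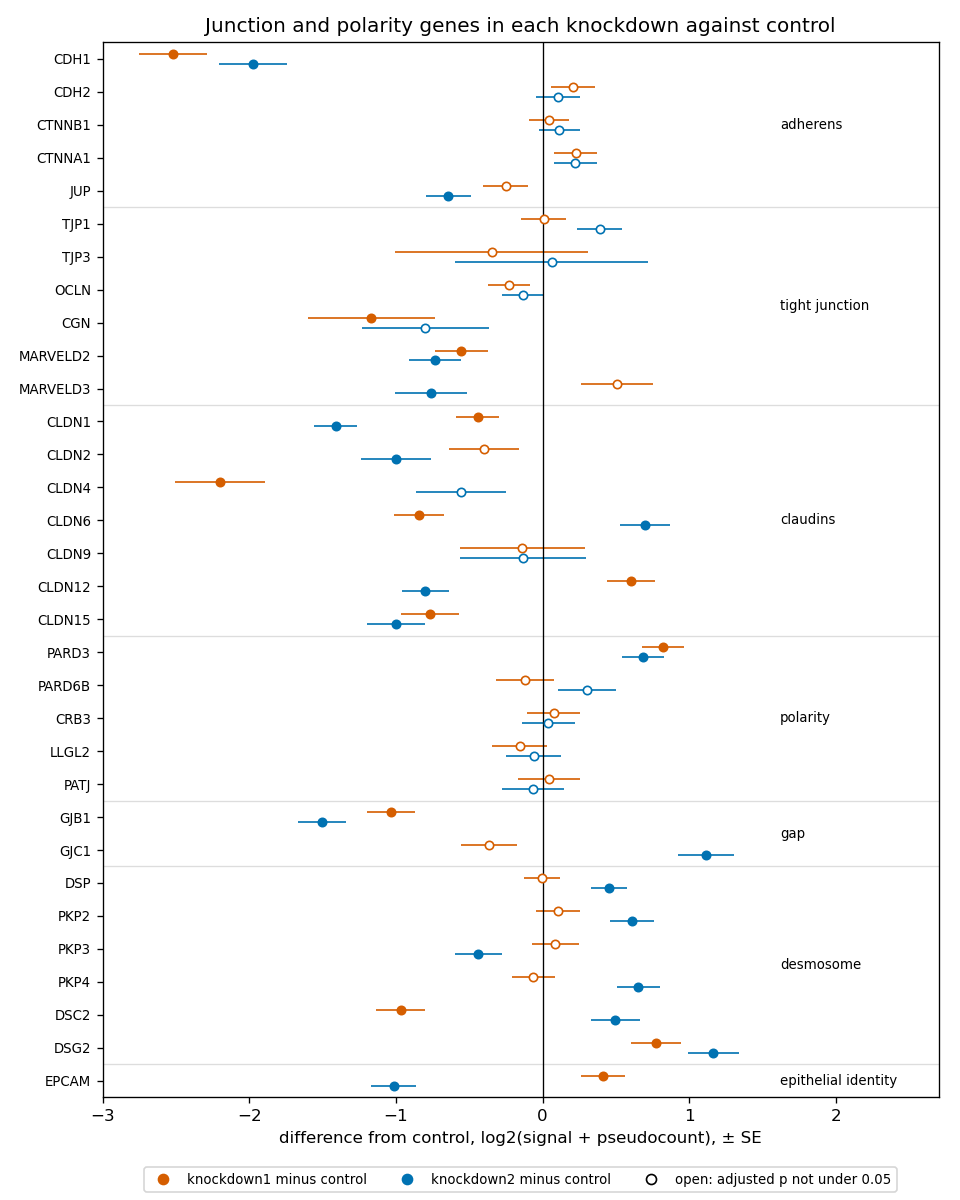
Log2 difference from control of the 32 tested genes, grouped by role, with knockdown1 in orange and knockdown2 in blue. Points are limma estimates, bars are 1 SE, and open points did not pass the test. CDH1 lies farthest left in knockdown2 and in knockdown1, at -1.97 and -2.52, and CLDN6, CLDN12, DSC2 and EPCAM have filled points on opposite sides of 0.

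CDH1, MARVELD2, CLDN1, CLDN15 and GJB1 were called lower in each comparison with control, and PARD3 and DSG2 were called higher in each. CLDN6, CLDN12, DSC2 and EPCAM were called in opposite directions. Over both knockdowns the 9 lower genes were CDH1, GJB1, CLDN4, CGN, CLDN1, CLDN15, CLDN2, MARVELD2 and JUP, with log2 differences from -2.25 for CDH1 to -0.45 for JUP. The 3 higher genes were DSG2 (0.97), PARD3 (0.75) and PKP2 (0.36). CGN, at -0.98, lost that call without knockdown1 replicate 2 (-0.56, adjusted p = 0.0771), among other settings, and PKP2 lost it without control replicate 1 (0.25, adjusted p = 0.256), among others. CLDN4 and CGN were not called in knockdown2 alone, and CLDN2, JUP and PKP2 were not called in knockdown1 alone. The 8 genes with no overlap between control and the 6 knockdown arrays were CDH1, CLDN1, CLDN2, CLDN4, CLDN15, PARD3, GJB1 and DSG2. The comparisons share the same 3 control arrays, so they are not independent. RefSeq promoter windows (GRCh38.p14, 250 bases before to 50 after the gene's start) were at hand for 27 of the 43 genes. The 4 below belong to genes called lower in each comparison, and are shown as the DNA next to the start of transcripts that were less abundant in both knockdowns. Capitals mark any match, on either strand, to a motif searched for. The windows lie at chr5:69414866-69415165 on the plus strand for MARVELD2, chr3:190322397-190322696 on the minus strand for CLDN1, chr7:101237753-101238052 on the minus strand for CLDN15 and chrX:71214989-71215288 on the plus strand for GJB1.
MARVELD2: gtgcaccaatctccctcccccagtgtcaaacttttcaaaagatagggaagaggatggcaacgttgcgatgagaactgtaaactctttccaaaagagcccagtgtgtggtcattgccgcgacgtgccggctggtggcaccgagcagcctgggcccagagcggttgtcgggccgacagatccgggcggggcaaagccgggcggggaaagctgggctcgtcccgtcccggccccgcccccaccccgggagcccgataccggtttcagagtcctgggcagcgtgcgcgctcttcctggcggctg
CLDN1: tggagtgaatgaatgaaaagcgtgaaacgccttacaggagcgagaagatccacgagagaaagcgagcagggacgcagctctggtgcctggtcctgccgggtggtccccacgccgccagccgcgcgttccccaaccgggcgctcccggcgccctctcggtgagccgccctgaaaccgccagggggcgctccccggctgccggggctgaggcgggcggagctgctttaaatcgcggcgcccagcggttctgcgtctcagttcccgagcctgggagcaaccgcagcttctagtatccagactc
CLDN15: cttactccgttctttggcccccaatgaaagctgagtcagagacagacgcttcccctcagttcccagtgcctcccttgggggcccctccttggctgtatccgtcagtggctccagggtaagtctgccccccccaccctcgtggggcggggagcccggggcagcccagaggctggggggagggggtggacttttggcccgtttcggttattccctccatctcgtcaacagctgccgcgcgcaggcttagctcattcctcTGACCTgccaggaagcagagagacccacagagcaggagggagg
GJB1: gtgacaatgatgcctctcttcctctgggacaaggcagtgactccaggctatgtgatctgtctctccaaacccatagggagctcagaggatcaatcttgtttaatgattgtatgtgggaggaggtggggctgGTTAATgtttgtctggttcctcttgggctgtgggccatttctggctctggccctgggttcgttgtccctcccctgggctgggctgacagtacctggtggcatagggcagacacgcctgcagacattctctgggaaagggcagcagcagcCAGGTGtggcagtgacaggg
The HNF4 site CAAAGTCCA was found in 0 of the 27 windows, and in 0.472% of all genes with a window. The nuclear receptor core hexamer AGGTCA was in 7 of 27 and in 16.5% of all genes. Its match in CLDN15, TGACCT, lies at position 8 after the start. The HNF1 core hexamer GTTAAT was in 3 of 27, against 8.27% of all genes, and lies at position -119 in GJB1. CACCTG, an E-box bound by SNAI and ZEB repressors, was in 15 of 27, against 24.1% of all genes, and GJB1 holds its reverse complement CAGGTG at position 31. The motifs were searched as exact letters, and the matches in the 4 windows shown do not overlap each other. A match is only a description of the letters and not a bound site.

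The adherens junction set was led by a fall of CDH1 in each knockdown, JUP fell in knockdown2, and CTNNB1 and CTNNA1 did not pass the test. CDH1 encodes E-cadherin, the cadherin of epithelial adherens junctions. Its scaled signals were 153, 131 and 185 in control, 40.3, 19.6 and 21.6 in knockdown1 and 45.1, 38.8 and 32.3 in knockdown2. Every knockdown array lay below every control array. The signal was 5.75-fold lower in knockdown1 (log2 -2.52, SE 0.23, adjusted p = 1.22e-09) and 3.93-fold lower in knockdown2 (log2 -1.97, SE 0.23, adjusted p = 1.79e-07). Between the knockdowns CDH1 differed by -0.55 (SE 0.23, adjusted p = 0.0837), and by -0.86 (adjusted p = 0.00591) without knockdown1 replicate 1. CDH1 was represented by 1 probe set. Its other probe set was not above the filter on dim probe sets and was not tested. That probe set had means of 11.6 in control, 5.21 in knockdown1 and 6.08 in knockdown2, and its groups overlapped.

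CDH2 encodes N-cadherin, which hepatocytes also express. Its signals were 702, 661 and 941 in control, 896, 751 and 993 in knockdown1 and 843, 784 and 823 in knockdown2, so the groups overlapped. The log2 difference was 0.20 (SE 0.15, adjusted p = 0.320) in knockdown1 and 0.10 (SE 0.15, adjusted p = 0.666) in knockdown2. In knockdown1 CDH2 passed the test at 0.36 (adjusted p = 0.0343) without control replicate 3, and under other scalings. CTNNB1, which encodes beta-catenin, the link between cadherins and alpha-catenin and a signal carrier of the Wnt pathway, read 826, 834 and 916 in control, 769, 914 and 985 in knockdown1 and 859, 1035 and 900 in knockdown2. Its groups overlapped, with log2 differences of 0.04 (SE 0.14, adjusted p = 0.844) and 0.11 (SE 0.14, adjusted p = 0.604). CTNNA1, the alpha-catenin that ties the complex to actin, differed by 0.23 (SE 0.15, adjusted p = 0.259) and 0.22 (SE 0.15, adjusted p = 0.288). Without control replicate 3 these became 0.39 (adjusted p = 0.0206) and 0.38 (adjusted p = 0.0241).

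JUP encodes plakoglobin, a catenin shared by adherens junctions and desmosomes. Its signals were 179, 160 and 182 in control, 136, 138 and 165 in knockdown1 and 109, 105 and 118 in knockdown2. The knockdown2 arrays were all below the control arrays, and it fell there by 0.64 (SE 0.15, adjusted p = 0.00196). In knockdown1 the log2 difference was -0.25 (SE 0.15, adjusted p = 0.225), and between the knockdowns 0.39 (SE 0.15, adjusted p = 0.0588). The direct difference passed without control replicate 2 (adjusted p = 0.0336) or 3 (adjusted p = 0.0285).

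Of the 6 tight junction genes outside the claudins, MARVELD2 was lower in each knockdown, CGN was called lower in knockdown1 and MARVELD3 in knockdown2, and none was called higher. The share called was 33.3% in each knockdown, against 33.3% of all genes in knockdown1 and 27.6% in knockdown2. MARVELD2 encodes tricellulin, which seals the points where 3 cells meet. It read 298, 218 and 364 in control, 230, 162 and 200 in knockdown1 and 184, 189 and 147 in knockdown2. The knockdown2 arrays lay below control, and 1 knockdown1 array overlapped it. The log2 differences were -0.55 (SE 0.18, adjusted p = 0.0168) and -0.73 (SE 0.18, adjusted p = 0.00237). The knockdown1 call was lost when knockdown1 replicate 2 (-0.42, adjusted p = 0.105), control replicate 1 (-0.53, adjusted p = 0.0550) or the third control array (-0.38, adjusted p = 0.0839) was left out. The other, dim MARVELD2 probe set passed in neither knockdown (-0.28, SE 0.38, adjusted p = 0.630 and -0.97, SE 0.38, adjusted p = 0.0708). With the mean of the probe sets the knockdown1 call was lost too (-0.42, adjusted p = 0.120).

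MARVELD3, a relative of occludin and tricellulin, read 32.1, 52.2 and 40.7 in control, 77.5, 47.1 and 55.7 in knockdown1 and 26.9, 23.3 and 20.7 in knockdown2. The knockdown2 arrays were the lowest of all, and the knockdown1 arrays overlapped control. It fell by 0.76 (SE 0.24, adjusted p = 0.0196) in knockdown2, with -0.59 (adjusted p = 0.103) without control replicate 2 and -0.68 (adjusted p = 0.0701) without knockdown2 replicate 3. Knockdown1 differed from control by 0.51 (SE 0.24, adjusted p = 0.115) and was 2.42-fold higher than knockdown2 (log2 1.27, SE 0.24, adjusted p = 2.16e-04). CGN, the gene of cingulin, an adaptor between tight junctions and the cytoskeleton, read 36.5, 43.0 and 49.1 in control, 38.9, 4.58 and 29.7 in knockdown1 and 28.8, 18.5 and 25.5 in knockdown2. Knockdown1 replicate 2 stood far below the others. Knockdown1 differed from control by -1.17 (SE 0.44, adjusted p = 0.0391), but by -0.31 (adjusted p = 0.481) without that replicate. The call was also lost when control replicate 2 was left out (-1.16, adjusted p = 0.0968), and likewise for control replicate 3 (-1.07, adjusted p = 0.115). In knockdown2 the log2 difference was -0.80 (SE 0.44, adjusted p = 0.188), and -0.80 (adjusted p = 0.0223) when knockdown1 replicate 2 was left out of the fit.

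By their brightest probe sets, OCLN, TJP1 and TJP3 were not called. OCLN, which encodes occludin, differed by -0.23 (SE 0.14, adjusted p = 0.237) in knockdown1 and -0.13 (SE 0.14, adjusted p = 0.547) in knockdown2. Its second brightest probe set read 114, 101 and 113 in control against 69.8, 58.7 and 67.2 in knockdown1 (log2 -0.73, SE 0.15, adjusted p = 0.00102), and the third brightest differed there by -0.56 (SE 0.16, adjusted p = 0.0140). The mean of the OCLN probe sets passed the test in knockdown1 (-0.50, adjusted p = 0.00786) and over both knockdowns (-0.34, adjusted p = 0.0304), so whether OCLN is called depends on the probe set. TJP1, the gene of the scaffold ZO-1, differed by 0.01 (SE 0.15, adjusted p = 0.975) and 0.39 (SE 0.15, adjusted p = 0.0584). The knockdown2 value passed the test without control replicate 3, at 0.58 (adjusted p = 0.00111), and under other scalings. The other probe set of TJP1 was called higher in knockdown2 (0.50, SE 0.14, adjusted p = 0.0135), with its arrays above control. It also differed between the knockdowns (-0.40, SE 0.14, adjusted p = 0.0479), so whether TJP1 is called depends on the probe set. TJP3, which encodes the scaffold ZO-3, was dim, at 1.79 to 22.7 over the arrays, and differed by -0.35 (SE 0.66, adjusted p = 0.733) and 0.06 (SE 0.66, adjusted p = 0.963).

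Claudins are the strands of the tight junction, and their mix sets which ions and how much water pass. Of 7 tested, 5 were called in knockdown1 (1 higher, 4 lower) and 5 in knockdown2 (1 higher, 4 lower). That is 71.4% in each, against 33.3% of all genes in knockdown1 and 27.6% in knockdown2. CLDN1, a sealing claudin, read 628, 472 and 633 in control, 448, 383 and 434 in knockdown1 and 226, 206 and 212 in knockdown2. The groups did not overlap, with knockdown2 lowest. CLDN1 was 1.36-fold lower in knockdown1 (log2 -0.44, SE 0.15, adjusted p = 0.0220) and 2.66-fold lower in knockdown2 (log2 -1.41, SE 0.15, adjusted p = 2.97e-08). The difference between the knockdowns was 1.96-fold (log2 0.97, SE 0.15, adjusted p = 1.15e-05). The knockdown1 call was lost without control replicate 1 (-0.38, adjusted p = 0.121) or knockdown1 replicate 2 (-0.38, adjusted p = 0.102). The other CLDN1 probe set did not pass in knockdown1 (-0.24, SE 0.16, adjusted p = 0.295), though its arrays lay below control. It passed in knockdown2 (-1.31, SE 0.16, adjusted p = 5.13e-06). The mean of the probe sets also lost the knockdown1 call (-0.34, adjusted p = 0.0675).

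CLDN15, which forms cation pores, read 101, 106 and 134 in control, 73.0, 62.8 and 61.3 in knockdown1 and 40.7, 73.1 and 58.0 in knockdown2. All knockdown arrays lay below control, and the knockdowns overlapped. It fell by 0.77 (SE 0.20, adjusted p = 0.00300) and by 1.00 (SE 0.20, adjusted p = 2.89e-04). CLDN2, a pore claudin, read 49.4, 55 and 46.7 in control, 35.9, 37.8 and 39.5 in knockdown1 and 30.8, 25.3 and 18.5 in knockdown2. The 3 groups were apart in that order, but only knockdown2 passed the test, where CLDN2 fell by 1.00 (SE 0.24, adjusted p = 0.00196). The value in knockdown1 was -0.40 (SE 0.24, adjusted p = 0.212), and between the knockdowns 0.60 (SE 0.24, adjusted p = 0.0634), or 0.76 (adjusted p = 0.0406) without knockdown2 replicate 1.

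CLDN4, a claudin that limits sodium passage, read 52.4, 43.1 and 54.1 in control, 11.2, 5.66 and 14.0 in knockdown1 and 32.2, 32.0 and 35.8 in knockdown2. The knockdown1 signals lay under the array median of 14.1, and the groups did not overlap. CLDN4 was 4.59-fold lower in knockdown1 (log2 -2.20, SE 0.31, adjusted p = 1.80e-06), and knockdown2 differed from control by -0.56 (SE 0.31, adjusted p = 0.195). The size of the fall in knockdown1 depends on how dim signals are treated, with log2 values of -2.44 to -1.40 over the alternatives, the smallest with a pseudocount of 14.1. The direct difference was -1.64 (SE 0.31, adjusted p = 1.50e-04). CLDN9 was dim in all groups, at 9.31 to 30.5, and was not called (-0.14, SE 0.43, adjusted p = 0.843 and -0.13, SE 0.43, adjusted p = 0.861).

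CLDN6 and CLDN12 were called in opposite directions in the knockdowns. CLDN6, a claudin of fetal and tumour epithelium, read 84.2, 78.2 and 89.3 in control, 42.2, 42.0 and 55.1 in knockdown1 and 124, 140 and 147 in knockdown2. Each group was apart from the others. In knockdown1 it fell by 0.84 (SE 0.17, adjusted p = 3.15e-04), and it rose by 0.70 (SE 0.17, adjusted p = 0.00276) in knockdown2, and the knockdowns differed 2.91-fold (log2 -1.54, SE 0.17, adjusted p = 7.08e-08). Its other probe set gave -0.09 (SE 0.25, adjusted p = 0.824) and 1.16 (SE 0.25, adjusted p = 0.00168), so the fall in knockdown1 rests on 1 probe set. The mean of both probe sets gave -0.47 (adjusted p = 0.0679) there. CLDN12 read 588, 521 and 626 in control, 959, 758 and 927 in knockdown1 and 275, 434 and 303 in knockdown2. Each group was again apart, with the order turned. It rose by 0.60 (SE 0.16, adjusted p = 0.00426) in knockdown1 and fell by 0.80 (SE 0.16, adjusted p = 3.64e-04) in knockdown2. The knockdowns differed 2.64-fold (log2 1.40, SE 0.16, adjusted p = 1.09e-07).

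**Figure D2:**
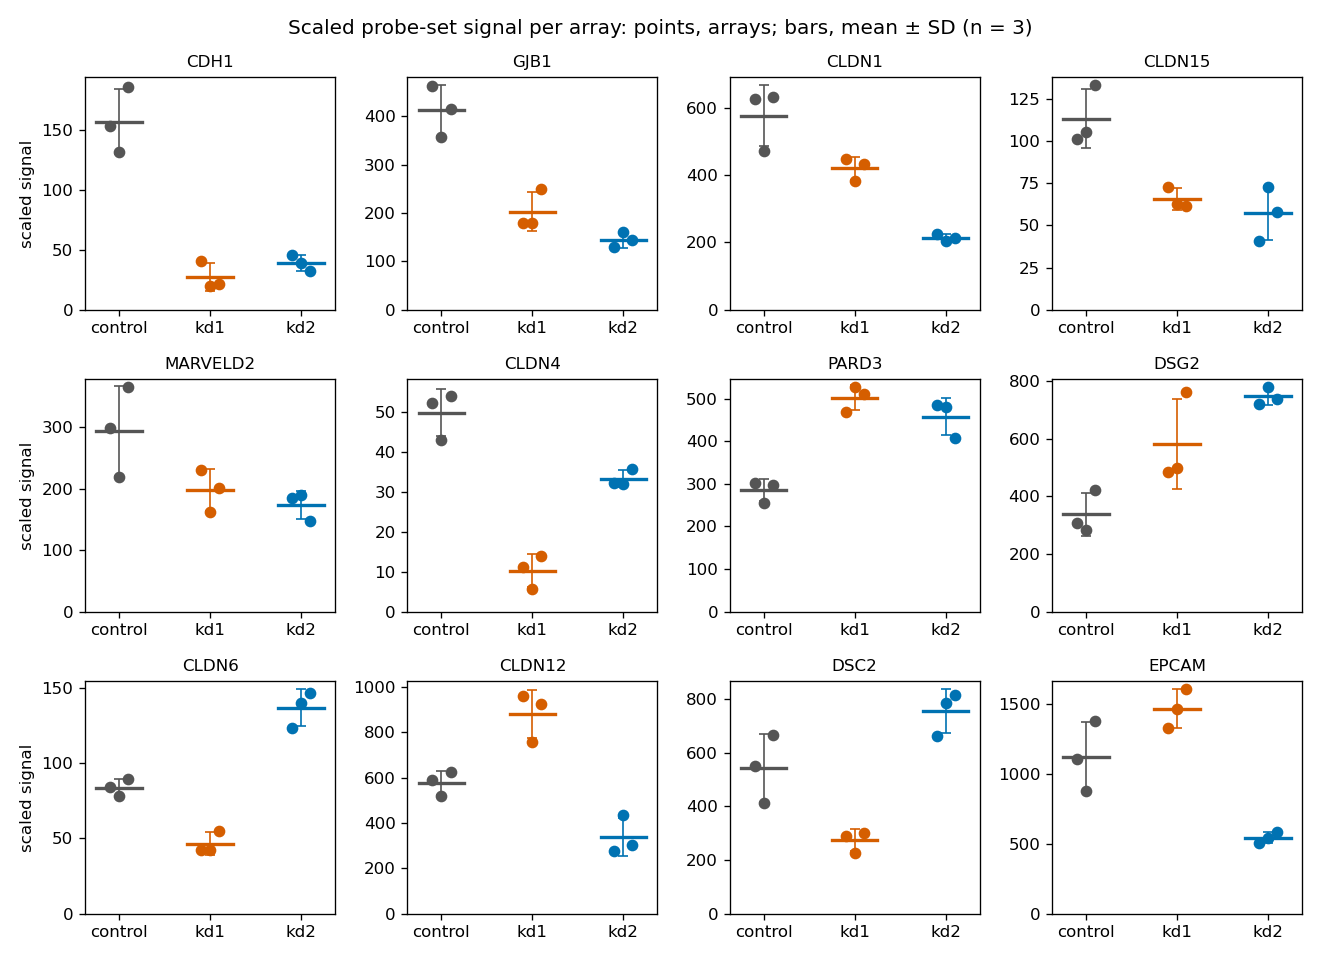
Scaled signal of 12 genes in each array, by group, with kd1 and kd2 for the knockdowns. Points are arrays and bars are the mean ± SD (n = 3). CDH1 in control averages 157 against 27.2 and 38.7 in the knockdowns. In CLDN6, CLDN12, DSC2 and EPCAM the knockdown means lie on opposite sides of the control mean.

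Among 5 polarity genes, PARD3 was called higher in each knockdown and the others were not called. This is 20% in each, against 33.3% of all genes in knockdown1 and 27.6% in knockdown2. PARD3 encodes the scaffold of the PAR complex at the apical junction. It read 301, 255 and 298 in control, 469, 526 and 511 in knockdown1 and 484, 480 and 408 in knockdown2. All knockdown arrays lay above control. The rise was 1.76-fold in knockdown1 (log2 0.82, SE 0.14, adjusted p = 4.60e-05) and 1.61-fold in knockdown2 (log2 0.68, SE 0.14, adjusted p = 5.50e-04). The probe sets of PARD3 did not give 1 picture. The third brightest read 81.9, 55.1 and 70.6 in control, 58.8, 31.8 and 41.3 in knockdown1 and 84.4, 88.9 and 101 in knockdown2. It fell in knockdown1 by 0.66 (SE 0.21, adjusted p = 0.0217), where the second brightest rose by 0.77 (SE 0.13, adjusted p = 1.11e-04). The mean over the probe sets gave 0.35 (adjusted p = 0.0618) in knockdown1, so the call there depends on the probe set.

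PARD6B, a partner of PARD3 in the PAR complex, differed from control by -0.12 (SE 0.20, adjusted p = 0.687) and 0.31 (SE 0.20, adjusted p = 0.278). Without control replicate 3, whose signal of 417 was above the 213 and 217 of the other controls, the value in knockdown2 was 0.62 (adjusted p = 0.00289). CRB3 and PATJ, of the apical Crumbs complex, and LLGL2, of the basolateral Scribble group, had log2 differences between -0.16 and 0.08, and none was called. Without control replicate 3, LLGL2 passed the test in knockdown1, at -0.43 (adjusted p = 0.0292). The other LLGL2 probe set passed over both knockdowns (-0.44, SE 0.16, adjusted p = 0.0448), with all knockdown arrays below control.

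GJB1 fell in each knockdown, and GJC1 rose in knockdown2. GJB1 encodes connexin 32, the main gap junction protein of hepatocytes. It read 462, 358 and 416 in control, 179, 179 and 249 in knockdown1 and 129, 161 and 143 in knockdown2. Every group was apart from the others. It was 2.04-fold lower in knockdown1 (log2 -1.03, SE 0.16, adjusted p = 1.13e-05) and 2.83-fold lower in knockdown2 (log2 -1.50, SE 0.16, adjusted p = 4.47e-08). The direct difference of 0.47 (SE 0.16, adjusted p = 0.0316) lost its call without knockdown1 replicate 3 (0.31, adjusted p = 0.191), knockdown2 replicate 1 (0.39, adjusted p = 0.152) or knockdown2 replicate 3 (0.47, adjusted p = 0.0809). GJC1, which encodes connexin 45, read 46.9, 58.5 and 65.8 in control, 36.2, 49.6 and 46.2 in knockdown1 and 108, 130 and 135 in knockdown2. Only the knockdown2 arrays stood apart. They were 2.16-fold above control (log2 1.11, SE 0.19, adjusted p = 4.55e-05) and 2.79-fold above knockdown1 (log2 -1.48 for knockdown1 minus knockdown2, SE 0.19, adjusted p = 7.03e-07). Knockdown1 differed from control by -0.36 (SE 0.19, adjusted p = 0.148).

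All 6 desmosome genes of the set were called in knockdown2, 5 higher and 1 lower, against 27.6% of all genes. Of 6 tested desmosome genes outside the set, 2 were called there (33.3%), 2 higher and 0 lower. In knockdown1 2 of the 6 genes of the set were called, DSG2 higher and DSC2 lower. This share of 33.3% was that of all genes in knockdown1, also 33.3%. DSG2 encodes desmoglein 2, a desmosomal cadherin. It read 307, 282 and 424 in control, 485, 498 and 763 in knockdown1 and 721, 782 and 740 in knockdown2. All knockdown arrays lay above control. The rise was 1.71-fold (log2 0.77, SE 0.17, adjusted p = 7.15e-04) and 2.24-fold (log2 1.17, SE 0.17, adjusted p = 5.62e-06). Its partner cadherin DSC2, desmocollin 2, read 550, 413 and 668 in control, 291, 228 and 303 in knockdown1 and 664, 786 and 818 in knockdown2. The knockdown1 arrays lay below all others, while knockdown2 and control overlapped, with 664 in knockdown2 against 668 in control. In knockdown1 DSC2 fell by 0.97 (SE 0.17, adjusted p = 3.47e-05), and it rose by 0.50 (SE 0.17, adjusted p = 0.0249) in knockdown2. That rise was lost when control replicate 1 was left out (0.52, adjusted p = 0.0553), and likewise for control replicate 2 (0.31, adjusted p = 0.141), knockdown2 replicate 2 (0.47, adjusted p = 0.0885) or knockdown2 replicate 3 (0.44, adjusted p = 0.109). Its 2 further probe sets were called in the same directions in each knockdown. The knockdowns differed 2.76-fold (log2 -1.47, SE 0.17, adjusted p = 8.55e-08).

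DSP, PKP2, PKP4 and PKP3 were called in knockdown2 and had log2 differences between -0.06 and 0.10 in knockdown1. DSP encodes desmoplakin, which ties desmosomes to keratin filaments, and plakophilins are armadillo proteins of the junction plaque. PKP4 read 720, 618 and 874 in control, 635, 659 and 813 in knockdown1 and 1129, 1148 and 1169 in knockdown2. It rose by 0.65 (SE 0.15, adjusted p = 0.00108) in knockdown2, and the direct difference was -0.72 (SE 0.15, adjusted p = 4.24e-04). PKP2 read 169, 210 and 210 in control, 193, 215 and 223 in knockdown1 and 301, 288 and 308 in knockdown2. It rose by 0.61 (SE 0.15, adjusted p = 0.00237), and the direct difference of -0.51 (SE 0.15, adjusted p = 0.0112) was lost without knockdown1 replicate 1 (-0.45, adjusted p = 0.0664) or knockdown2 replicate 3 (-0.49, adjusted p = 0.0560). In both genes the knockdown2 arrays lay above all others.

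DSP, at means of 3674 in control, 3658 in knockdown1 and 5006 in knockdown2, rose by 0.45 (SE 0.13, adjusted p = 0.00702) in knockdown2. Without control replicate 1 the value was 0.36 (adjusted p = 0.0839) and without knockdown2 replicate 2 it was 0.41 (adjusted p = 0.0504). The knockdowns differed by -0.46 (SE 0.13, adjusted p = 0.00683). PKP3, at means of 96.2, 102 and 70.4, fell by 0.44 (SE 0.16, adjusted p = 0.0439) in knockdown2 and differed between the knockdowns by 0.52 (SE 0.16, adjusted p = 0.0160). The fall lost its call under 10 of 20 alternatives, among them leaving out knockdown2 replicate 1 (-0.43, adjusted p = 0.116), control replicate 2 (-0.36, adjusted p = 0.108), knockdown2 replicate 2 (-0.45, adjusted p = 0.1004) and knockdown2 replicate 3 (-0.44, adjusted p = 0.115). It was also lost without control replicate 1 (-0.50, adjusted p = 0.0554), knockdown1 replicate 1 (-0.44, adjusted p = 0.0516) or knockdown1 replicate 2 (-0.44, adjusted p = 0.0538). The direct difference was lost without knockdown1 replicate 2 (0.50, adjusted p = 0.0547), knockdown2 replicate 1 (0.52, adjusted p = 0.0548) or knockdown2 replicate 3 (0.52, adjusted p = 0.0534).

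EPCAM, an adhesion molecule of epithelial and hepatic progenitor cells, was 2.02-fold lower in knockdown2 and 1.33-fold higher in knockdown1. It read 1106, 876 and 1378 in control, 1332, 1466 and 1612 in knockdown1 and 507, 542 and 584 in knockdown2. The knockdown2 arrays lay below all others, while knockdown1 and control overlapped. The log2 differences were 0.41 (SE 0.15, adjusted p = 0.0357) and -1.02 (SE 0.15, adjusted p = 6.94e-06), and the direct difference was 1.43 (SE 0.15, adjusted p = 2.59e-08). The rise in knockdown1 lost its call when control replicate 1 was left out (0.41, adjusted p = 0.0894), and likewise for control replicate 2 (0.25, adjusted p = 0.178), knockdown1 replicate 2 (0.41, adjusted p = 0.0741) or knockdown1 replicate 3 (0.34, adjusted p = 0.123). EPCAM was measured by 1 probe set.

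Set directly against each other, knockdown1 was higher for MARVELD3, CLDN1, CLDN12, GJB1, PKP3 and EPCAM, and lower for CLDN4, CLDN6, GJC1, DSP, PKP2, PKP4 and DSC2. The values ran from -1.64 for CLDN4 to 1.43 for EPCAM, but that of CLDN4 ranged from -1.88 to -0.98 over the alternatives and that of CLDN6 from -1.67 to -1.32, so the order of these genes is not settled. CDH1, CLDN15, MARVELD2 and PARD3, called in the same direction in each comparison with control, did not pass the direct test, with log2 values of -0.55, 0.23, 0.18 and 0.14. A p that misses the threshold does not show that they responded alike.

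**Figure D3:**
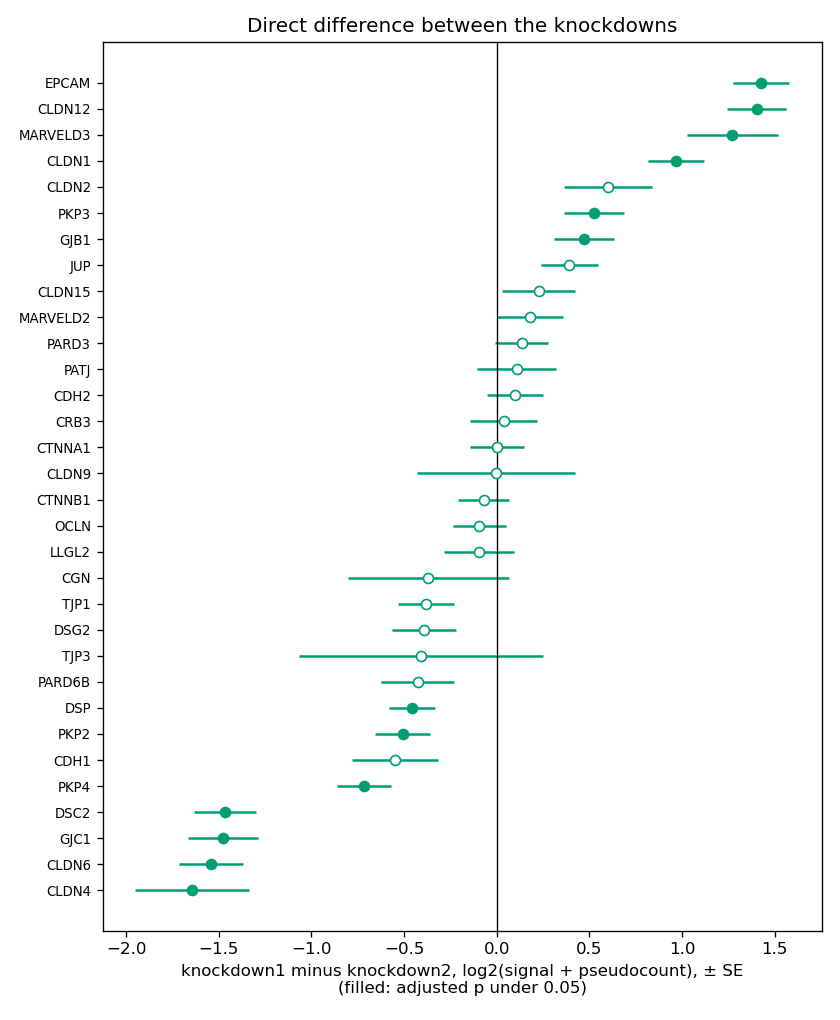
Knockdown1 minus knockdown2 for the 32 tested genes in order of the log2 difference, with bars of 1 SE and filled points for adjusted p under 0.05. EPCAM, CLDN12 and MARVELD3 are at the top, at 1.43, 1.40 and 1.27, and CLDN4 and CLDN6 are at the bottom, at -1.64 and -1.54.

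None of the 4 comparisons called CDH2, CTNNB1, CTNNA1, TJP1, TJP3, OCLN, CLDN9, PARD6B, CRB3, LLGL2 or PATJ by its brightest probe set. A further 8 genes did not pass the filter on dim probe sets, so they had no test. Their brightest probe sets ranged over the 9 arrays from 2.04 to 14.8 for CDH17, 1.27 to 8.02 for CLDN3, 0.726 to 6.02 for CLDN7 and 2.18 to 21.7 for CLDN14. The ranges were 0.307 to 4.0 for CLDN23, 0.459 to 7.42 for GJB2, 0.313 to 7.15 for GJA1 and 0.994 to 11.8 for ESRP1. CTNND1, F11R and ESRP2 had no probe set of their own in the annotation and were not analysed here.

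The 43 genes carried 89 probe sets, of which 62 passed the filter, and 17 tested genes had more than 1. Among the called values of these genes, 45 could be set beside a further probe set, and 43 of the 45 had the same sign, 25 of them passing the test. The 2 of opposite sign were both from the third brightest probe set of PARD3, and 1 of them passed.

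**Figure D4:**
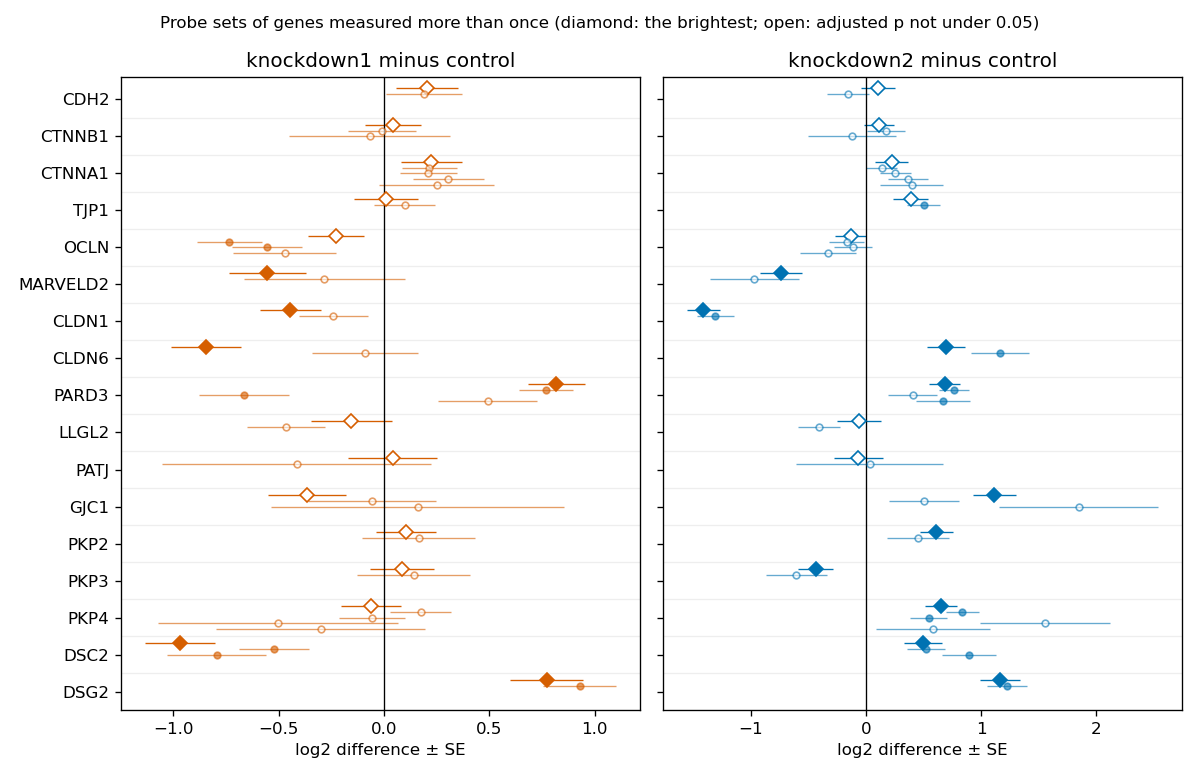
Log2 difference from control of each probe set for the 17 genes with more than 1 above the filter, for knockdown1 (left) and knockdown2 (right), with bars of 1 SE. Diamonds are the brightest probe set, circles the others, and open symbols did not pass the test. In knockdown1 the PARD3 probe sets lie on both sides of 0, from -0.66 to 0.82.

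Other genes of the same structures were taken from lists chosen by function, with earlier results of these data known. Their counts over both knockdowns are to be read against the 32.6% of all tested genes called, 14.7% higher and 17.9% lower. Among 16 tested of 24 other adherens junction genes, 3 were higher and 3 lower over both knockdowns (37.5% called). VEZT, the gene of vezatin, rose by 0.72 (SE 0.13, adjusted p = 5.20e-05) and CTNNBIP1, an inhibitor of beta-catenin, rose by 0.55 (SE 0.15, adjusted p = 0.00489). PDLIM1, an actin-associated adaptor, fell by 0.52 (SE 0.11, adjusted p = 5.21e-04), and ACTN4, an actin crosslinker, fell by 0.39 (SE 0.15, adjusted p = 0.0480). CTNNBIP1 and ACTN4 were not called in knockdown2 alone (0.27, adjusted p = 0.271 and -0.22, adjusted p = 0.400). Among 14 tested of 28 other tight junction genes, 4 were higher and 2 lower (42.9%). AMOTL1, an angiomotin relative, rose by 1.12 (SE 0.32, adjusted p = 0.00788), with arrays that overlapped control. It was called in knockdown2 (1.79, SE 0.37, adjusted p = 5.01e-04) but not in knockdown1 (0.45, SE 0.37, adjusted p = 0.391). Its control mean of 11.3 was under the array median. CLDN11 rose by 0.81 (SE 0.14, adjusted p = 4.04e-05), while CLDN19 fell by 0.97 (SE 0.18, adjusted p = 1.32e-04) and AMOTL2, of the same family as AMOTL1, fell by 0.79 (SE 0.14, adjusted p = 5.20e-05). In knockdown1 alone CLDN19 was not called (-0.51, SE 0.21, adjusted p = 0.0646). These lists held changes in both directions.

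Of 24 tested among 29 other polarity genes, 6 were higher and 6 lower over both knockdowns (50% called). MYO5B, a motor that carries membrane to the apical side and is needed for bile canaliculi, fell most, with means of 272 in control, 91.1 in knockdown1 and 91.6 in knockdown2 (log2 -1.56, SE 0.14, adjusted p = 2.02e-09). LIN7A, a scaffold of the LIN7 family, fell by 0.97 (SE 0.13, adjusted p = 1.78e-06), and its relative LIN7B fell by 0.66 (SE 0.20, adjusted p = 0.0132). In knockdown2 alone LIN7B was not called (-0.55, SE 0.24, adjusted p = 0.0889). PARD6G, a relative of PARD6B, rose by 0.67 (SE 0.15, adjusted p = 6.49e-04). Of 6 tested among 12 other desmosome genes, 2 were higher and 0 lower (33.3%). PPL, the gene of periplakin, rose by 1.30 (SE 0.17, adjusted p = 7.61e-07), and PERP, a desmosomal membrane protein, rose by 1.27 (SE 0.12, adjusted p = 1.62e-09). None of the 4 tested of 14 other gap junction genes was called over both knockdowns.

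Of 14 tested among 20 regulators of epithelial state, 1 was called over both knockdowns (7.14%). KLF4, a factor that favours epithelial genes, rose by 1.46 (SE 0.17, adjusted p = 1.58e-07). In knockdown1 2 of the 14 were called (14.3%, against 33.3% of all genes), and in knockdown2 3 of 14 (21.4%, against 27.6%). Both shares lay below that of all genes. The 3 called in a single knockdown only are named after their values were seen. ZEB1, a repressor of CDH1, rose by 0.63 (SE 0.15, adjusted p = 0.00213) in knockdown2, and in knockdown1 its log2 difference was -0.14 (SE 0.15, adjusted p = 0.514). TWIST2, a factor of mesenchymal cells, fell by 0.74 (SE 0.24, adjusted p = 0.0159) in knockdown1, with -0.23 (SE 0.24, adjusted p = 0.522) in knockdown2. ELF5, an epithelial factor of the ETS family, fell by 0.67 (SE 0.20, adjusted p = 0.0115) in knockdown2, with 0.18 (SE 0.20, adjusted p = 0.525) in knockdown1. The part of these factors in the junction genes' values was not tested.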

How the data were processed

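RNA of 9 HepG2 samples, 3 per group, was labelled and hybridised to oligonucleotide arrays. Linear intensities per probe set were deposited, made by the authors with MAS5, per the submitters' processing notes, with the version not given in the sources used here. MAS5 subtracts background, so dim probe sets scatter, and 31.6% of tested genes had a mean signal under 50, among them 6 junction genes. The number of arrays limits the precision, and no depth applies.

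The array medians were 12.3 to 15.7, so each array was scaled (factors 0.898 to 1.15) to 14.1, the common median, and log2(signal + 1.41) was taken. Of 54675 probe sets, 41091 were annotated to 1 gene, 1801 to several and 11721 to none, and 62 were controls. Probe sets of 1 gene above their array's median in at least 3 arrays (24565) were kept, the brightest per gene. All 9 arrays entered 1 fit in limma 3.58.1 (R 4.3.3, eBayes with trend); tests were two-sided, adjusted after Benjamini and Hochberg over 13056 genes, with a threshold of 0.05. Further probe sets were fitted with all 24565 together.

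The genes and lists were chosen with earlier results of these data known. Per-array signals are given for genes called with at least a 1.5-fold change, and for CDH1, CDH2, EPCAM and CTNNB1, and other genes are summarised. From each other list, up to 4 called genes with the largest change over both knockdowns are named. On simulated data with known changes among 12909 to 12967 genes, the fit recovered 92.3% to 98.4% of 4-fold, 65.2% to 69.8% of 2-fold and 21.5% to 32.8% of 1.5-fold changes over the 4 comparisons. Only 63 to 67 tested genes were changed at each fold, a far smaller share than was called in the data. The adjusted p threshold was thus stricter there, and the rates may not hold here. Alternatives in scaling, pseudocount, filter, probe-set rule, variance trend, replicate block and single arrays left out were run.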

Additional observations from a re-analysis of the deposited data

Results flagged for a closer look

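CLDN6, CLDN12, DSC2 and EPCAM stood out because they were called in opposite directions in the knockdowns and the knockdowns also differed when tested against each other. The rise of DSC2 in knockdown2 lost its call under 6 of 20 alternatives, and that of EPCAM in knockdown1 under 7 of 20. The fall of CLDN6 in knockdown1 lost its call under 1 of 20, and CLDN12 kept its calls throughout. Knockdown1 minus knockdown2 was -1.54 for CLDN6 (SE 0.17, limma adjusted p = 7.08e-08), and 1.40 for CLDN12 (SE 0.16, adjusted p = 1.09e-07). It was -1.47 for DSC2 (SE 0.17, adjusted p = 8.55e-08), and 1.43 for EPCAM (SE 0.15, adjusted p = 2.59e-08). In each of the 4 genes all 3 arrays of knockdown1 lay on 1 side of all 3 arrays of knockdown2, as in 5710 of all 13056 genes tested. The 4 were picked by opposite calls against control together with the direct test, so neither this separation nor the direct p-values add support. Taken alone, which is a looser rule than the 1 used here, the direct test called 26.6% of all genes tested. The comparisons with control share the same control arrays.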

How the results depend on the processing

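Of 57 called values of the junction genes, 39 kept their call and sign under every alternative run, 18 lost the call under at least 1 and 0 changed sign. Over both knockdowns, 12 genes were called, but 7 when the knockdown arrays were pooled into 1 group, and leaving out 1 array at a time gave 9 to 19. Over all tested genes the count was 4256, and 2205 with the knockdown arrays pooled. In the same way knockdown1 gave 9 to 14, knockdown2 16 to 22 and the direct comparison 10 to 17. Whether samples with the same replicate number were paired is not settled by the data. Correlations of their deviations were -0.02 to 0.13, and 5 of 9 arrays correlated best with their own number. With a replicate block, 13 genes were called in knockdown1, 20 in knockdown2, 15 over both knockdowns and 17 between them. Of all genes the block called 38.3%, 32.7%, 37.6% and 31.8% in the same order, more than without it. Dim genes such as CGN, CLDN9 and TJP3 are the least certain, since MAS5 signals near background scatter.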
